A study of Mus musculus with 4 samples.

Results

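Proteasome genes were examined in the hearts of mice aged 8 weeks. They were taken as every gene whose symbol begins with Psm, followed by a letter from a to g and a number, which gave 48 of the 55401 genes in the table. By role these were 8 genes of the 20S alpha ring, 7 of the constitutive 20S beta ring, 4 genes of inducible or thymus-specific beta subunits, 6 of the 19S ATPases, 11 of the 19S non-ATPase subunits, 3 of the 19S assembly chaperones, 4 activators, 1 inhibitor and 4 of the 20S assembly chaperones. RNA came from 2 wild-type hearts and 2 heterozygous hearts (Ctcf+/R567W), with 1 library per replicate, each taken to be 1 mouse. The values below are given in the order wild-type replicate 1, wild-type replicate 2, heterozygous replicate 1 and heterozygous replicate 2. In the heterozygous mice one germline allele of *Ctcf* carried CTCF-R567W, a substitution made with CRISPR/Cas9, and the study's methods name C57BL/6N mice. The labels give no drug or surgery for either group, and whole heart tissue was used, so fewer cells of a type and less RNA per cell cannot be told apart.

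The proteasome is the main protease of the cytosol and nucleus. Its 20S core is a barrel of alpha rings, which gate the entrance, around beta rings, which hold the proteolytic sites, and the 19S particle binds ubiquitin-tagged proteins, unfolds them and feeds them into the core. Interferon and immune cells bring in beta subunits that replace the constitutive catalytic ones, forming the immunoproteasome, which makes peptides for antigen presentation, and in heart muscle the proteasome removes damaged and surplus sarcomere proteins.

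Only relative abundances (TPM) were deposited, and these keep no read depth, so neither the depth of a library nor the counting error of a value is known. Genes of the mitochondrial genome took 61.1% to 68.6% of the TPM, their nuclear copies 14.1% to 19.8%, and all other genes 21.2% and 24.0% in wild-type and 14.2% and 17.6% in heterozygous hearts. Each library was therefore divided by a scaling factor (1.09, 1.26, 0.818 and 0.903), and the values below are scaled TPM unless named otherwise. *Ctcf* itself overlapped between genotypes (6.12, 6.02, 7.51 and 5.76), and its level does not check the genotype, since TPM do not show which allele was transcribed. Defining markers of heart muscle were abundant in all 4 hearts, with *Myh6* from 9133 to 10554.

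In the scaled data, the constitutive beta ring was lower in both heterozygous hearts, though in heterozygous replicate 2 the margin was narrow for *Psmb3*, *Psmb5* and *Psmb6*. The inducible catalytic subunits were not lower in both hearts, and the 19S particle lay between the beta ring and the inducible subunits. No proteasome gene passed an adjusted p under 0.05 with a fold change over 1.5 in limma, against 0.0199% of the 10036 genes tested. Of the 48 genes 46 reached the mean of 1 TPM that was required for testing, and 33 of these had a log2 fold change below 0 (71.7%, against 50.7% of all genes tested), with the other 13 above 0 (against 49.3%). At an unadjusted p under 0.05, 7 were lower in the heterozygous hearts (15.2%, against 5.71% of all genes) and 0 were higher (against 6.49%). For 19 genes both heterozygous hearts lay below both wild-type hearts (41.3%, against 23.3% of all genes), and for 5 both lay above (10.9%, against 23.7%). The median log2 fold change was -0.14 over the proteasome genes and -0.00 over all genes, and the former was -0.014 without heterozygous replicate 1 and -0.26 without heterozygous replicate 2. The smallest adjusted p of any proteasome gene was 0.335, for *Psmb2*.

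Single libraries weighed on these counts. Heterozygous replicate 1 had the lowest of the 4 values for 32 of the 46 genes, or 69.6%, against 31.4% of all genes tested, and it lay below heterozygous replicate 2 for 40 of them (87.0%, against 51.1%). For 30 genes (65.2%, against 56.4%) the gap between the heterozygous hearts was wider than the gap between the genotype means. The number of proteasome genes that were lower at an unadjusted p under 0.05 went from 7 to 1 without wild-type replicate 1, to 0 without wild-type replicate 2, to 2 without heterozygous replicate 1 and to 15 without heterozygous replicate 2. The shares of all genes that were lower under these settings were 2.58%, 2.08%, 6.63% and 12.3%, in the same order, so that the 1, 0 and 2 proteasome genes were at or below background. The direction also depended on the scaling. With TPM as deposited the median of all genes itself moved to -0.35, all 46 proteasome genes were below 0, and the median of the inducible subunits was -0.23. Changes are therefore read relative to the median of all genes. Below, where a library was left out or a setting changed, role medians and log2 fold changes had the shift in that median subtracted.

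**Figure D1:**
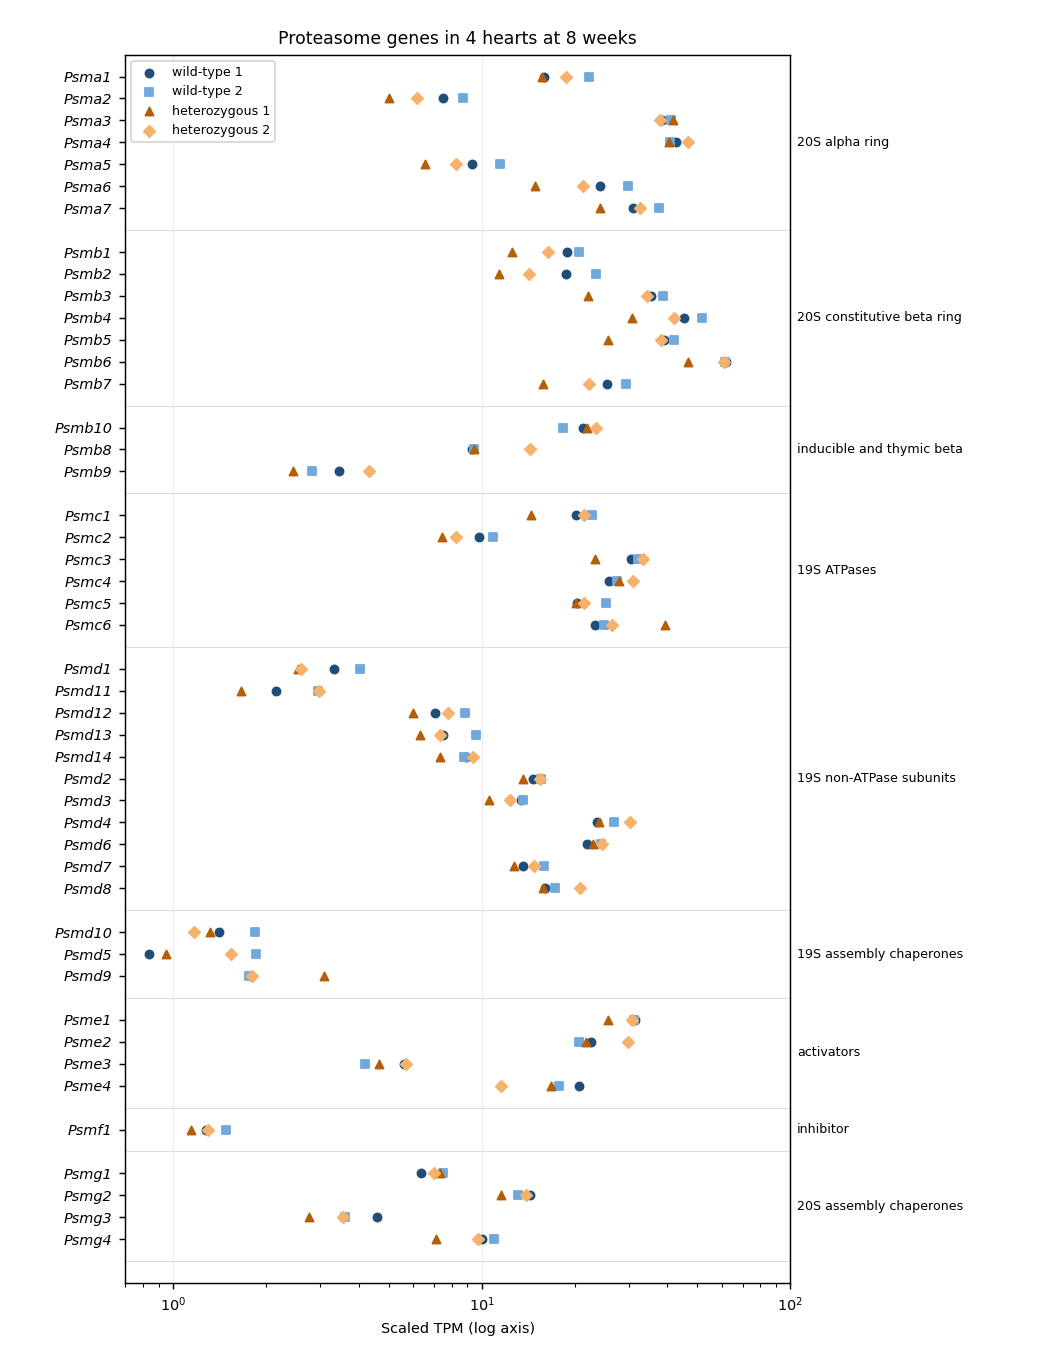
Scaled TPM of the 46 tested proteasome genes on a log axis, 1 point per heart, with genes ordered by role. The 7 constitutive beta genes show both heterozygous hearts below both wild-type hearts, while *Psmb8*, *Psmb10*, *Psmc4*, *Psmc6* and *Psmd9* show both above.

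The proteasome was expressed well above the typical gene. Its tested genes had a median rank at the 84.2, 86.0, 81.0 and 83.0 percentile of all tested genes in the 4 hearts. The constitutive beta ring ranked highest among the rings, at the 93.0, 93.7, 88.7 and 92.8 percentile. The sum of scaled TPM over the proteasome genes was 831.0 and 896.7 in wild-type and 707.5 and 850.7 in heterozygous hearts, so the groups overlapped. Outside mitochondrial genes and their copies, proteasome genes held 0.427%, 0.471%, 0.408% and 0.436% of the TPM.

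The alpha ring forms the gate through which substrates enter the core. Its 7 tested genes had a median log2 fold change of -0.27, 6 of them below 0 (85.7%, against 50.7% of all genes). For 3 both heterozygous hearts lay below both wild-type hearts (42.9%, against 23.3%). These 3 were also the ones past an unadjusted p of 0.05 (against 5.71% of all genes that were lower). Leaving out heterozygous replicate 2 brought the median to -0.49, and leaving out heterozygous replicate 1 brought it to -0.07. *Psma6* stood at 24.1 and 29.8 in wild-type and 14.9 and 21.3 in heterozygous hearts, the lowest fold change of the ring (log2 -0.56, SE 0.22, unadjusted p = 0.038, limma adjusted p = 0.389). *Psma2*, the least abundant of the 7, stood at 7.52, 8.73, 5.003 and 6.17 (log2 -0.47, SE 0.16, unadjusted p = 0.023, limma adjusted p = 0.360). *Psma5* stood at 9.32, 11.5, 6.56 and 8.25 (log2 -0.44, SE 0.18, unadjusted p = 0.044, limma adjusted p = 0.396). In all 3 genes the spread between hearts of one genotype was smaller than the gap between the genotype means, but none passed the adjusted threshold.

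The rest of the ring overlapped between genotypes. *Psma4*, the most abundant alpha subunit, stood at 42.7, 40.6, 40.4 and 46.5 (log2 0.06, 95% interval -0.35 to 0.47). *Psma3* stood at 38.4, 41.1, 41.6 and 37.9 (log2 -0.00, 95% interval -0.40 to 0.40), and a processed pseudogene, *Gm13835*, was identical to it over 685 bases and listed at 0.44, 1.53, 0.49 and 0.80 TPM. *Psma1* (log2 -0.13) and *Psma7* (log2 -0.27) overlapped as well. *Psma8*, the alpha subunit of the testis, was listed at 0.27 or less in every heart and was not tested. Within the ring the mean level ranged 6.21-fold, from *Psma2* at 6.86 to *Psma4* at 42.6. *Psma4* and *Psma3* exchanged places between hearts and did not differ beyond their spread, whereas *Psma5* stayed below *Psma1* in every heart with no overlap of their ranges.

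The constitutive beta ring carries the 3 proteolytic activities of the standard proteasome. All 7 of its genes were lower in both heterozygous hearts than in both wild-type hearts, against 23.3% of all genes tested, with a median log2 fold change of -0.42 and a range of -0.68 to -0.20. The median was -0.20 without heterozygous replicate 1 and -0.65 without heterozygous replicate 2. Heterozygous replicate 1 was the lowest heart for all 7. Summed over the ring, scaled TPM were 244.3 and 267.5 in wild-type and 164.8 and 228.5 in heterozygous hearts.

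The catalytic subunits come first. *Psmb5*, which cuts after hydrophobic residues (chymotrypsin-like activity), stood at 38.9 and 42.0 in wild-type and 25.6 and 38.1 in heterozygous hearts (log2 -0.36, SE 0.22, 95% interval -0.89 to 0.17, limma adjusted p = 0.520). *Psmb6*, which cuts after acidic residues (caspase-like activity), was the most abundant proteasome gene of all, at 61.9, 61.2, 46.7 and 61.1 (log2 -0.20, 95% interval -0.67 to 0.26, limma adjusted p = 0.676). Heterozygous replicate 2 was thus level with the wild-type hearts for *Psmb6*, and the lower mean rested on heterozygous replicate 1. *Psmb7*, which cuts after basic residues (trypsin-like activity), stood at 25.4, 29.4, 15.8 and 22.3 (log2 -0.52, SE 0.21, unadjusted p = 0.043, limma adjusted p = 0.396). Its exons share 405 bases on the opposite strand with *Nek6*, which was listed at 0.81 TPM or less.

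The other beta genes encode structural subunits of the ring. *Psmb2* stood at 18.8 and 23.5 in wild-type and 11.4 and 14.2 in heterozygous hearts (log2 -0.68, SE 0.19, unadjusted p = 0.0096, limma adjusted p = 0.335). The gene lies on chromosome 4 (126677630 to 126709714, plus strand, mm10). It was the 1 proteasome gene of the 46 tested that was more than 1.5-fold lower, against 226 of the 10036 genes tested. More than 1.5-fold higher were 0 proteasome genes, against 251 of the 10036. Neither count stood out from that of all genes. *Psmb1* stood at 18.9, 20.8, 12.6 and 16.4 (log2 -0.44, SE 0.18, unadjusted p = 0.048, limma adjusted p = 0.405). *Psmb4* (45.1, 51.9, 30.6 and 42.0, log2 -0.42) and *Psmb3* (35.3, 38.8, 22.2 and 34.4, log2 -0.41) did not reach an unadjusted p of 0.05. *Psmb2* and *Psmb1* had nearly the same mean level, 17.0 and 17.2, and exchanged places between hearts, whereas from *Psmb6* through *Psmb4*, *Psmb5*, *Psmb3* and *Psmb7* to *Psmb1* the order held within every heart.

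**Figure D2:**
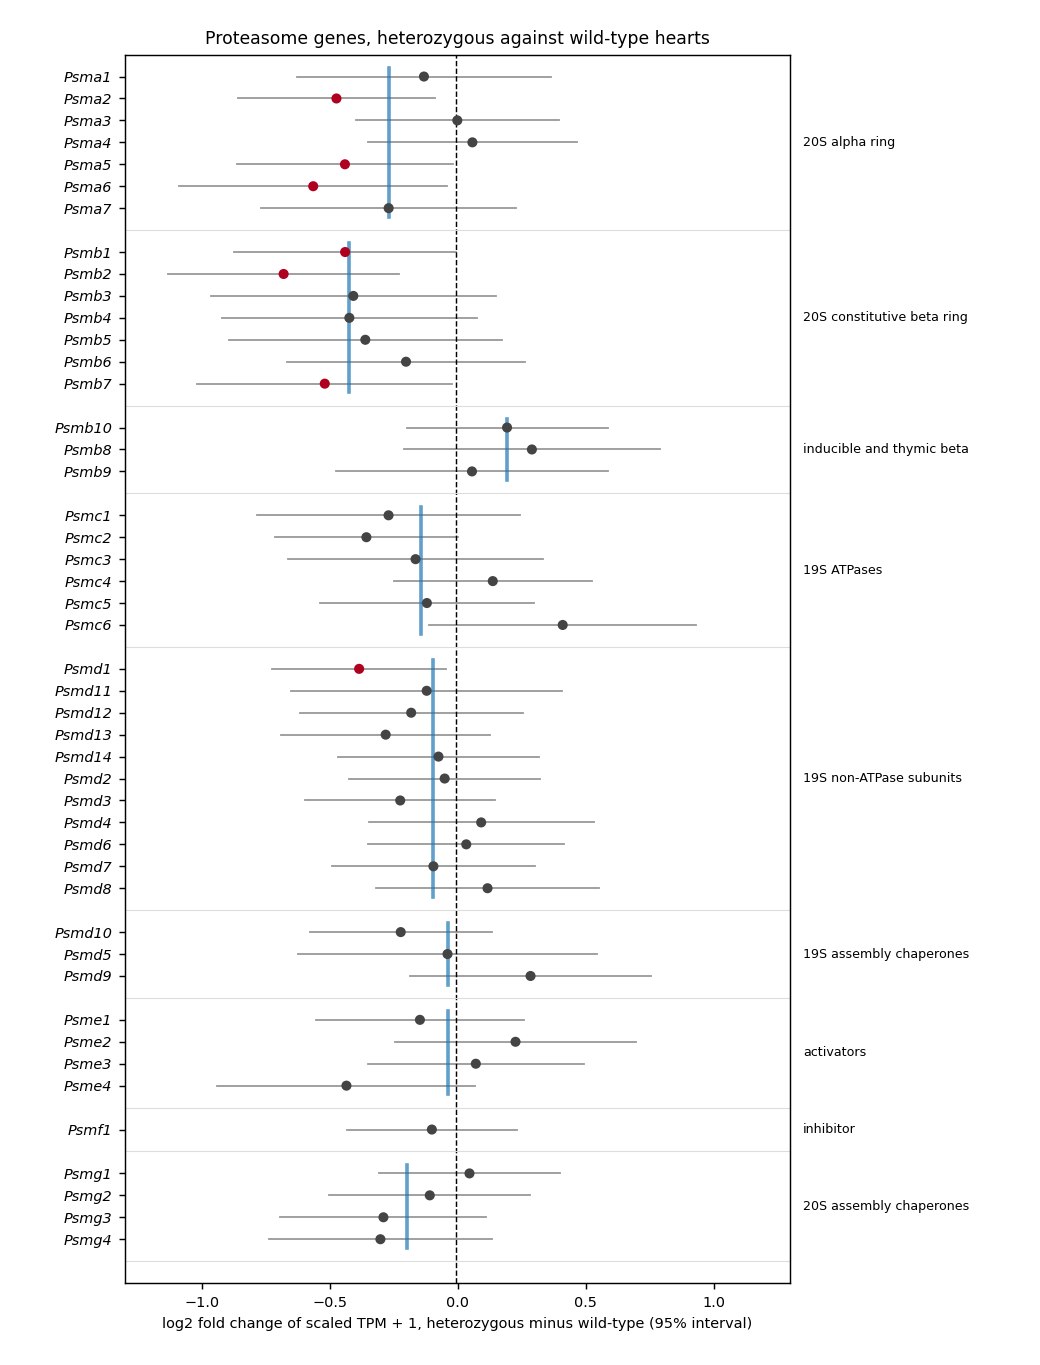
Log2 fold change of each tested proteasome gene, heterozygous minus wild-type, with its 95% interval from limma, grouped by role. Red marks an unadjusted p under 0.05, a blue bar the median of a role and the dashed line the median of all genes tested. The medians run from -0.42 in the constitutive beta ring to 0.19 in the inducible subunits.

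The inducible subunits take the places of the constitutive catalytic ones when the immunoproteasome is built. Of the 3 tested, 0 were lower in both heterozygous hearts (against 23.3% of all genes) and 2 were higher (66.7%, against 23.7%). Their median log2 fold change was 0.19. That median was 0.0037 without heterozygous replicate 2 and 0.37 without heterozygous replicate 1. *Psmb8*, which replaces *Psmb5*, stood at 9.28 and 9.44 in wild-type and 9.44 and 14.4 in heterozygous hearts (log2 0.29, 95% interval -0.21 to 0.79, limma adjusted p = 0.574). Heterozygous replicate 1 was level with the wild-type hearts for *Psmb8*, and the higher mean rested on heterozygous replicate 2. *Psmb10*, which replaces *Psmb7*, was the most abundant of the 3 and stood at 21.3, 18.3, 22.0 and 23.5 (log2 0.19, 95% interval -0.20 to 0.59, limma adjusted p = 0.640). *Psmb9*, which replaces *Psmb6*, stood at 3.46, 2.83, 2.46 and 4.33 and overlapped (log2 0.06, 95% interval -0.48 to 0.59). Its log2 fold change was -0.05 without wild-type replicate 2 and -0.26 without heterozygous replicate 2. Its exons share 212 bases with *Tap1* on the opposite strand, and the sources used here do not state whether strand was used in counting. *Psmb11*, the thymus-specific beta subunit, was listed at 0 in all 4 hearts. Levels of the 3 inducible genes did not overlap with each other, with *Psmb10* above *Psmb8* and *Psmb8* above *Psmb9* in every heart.

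A ratio of a pair of genes within a library does not depend on the scaling between libraries. The ratio of *Psmb8* to *Psmb5* was 0.239 and 0.225 in wild-type and 0.369 and 0.377 in heterozygous hearts, 1.61-fold higher. The ratio of *Psmb10* to *Psmb7* was 0.839, 0.622, 1.39 and 1.05, 1.68-fold higher. In both ratios the hearts did not overlap between genotypes, so that heterozygous hearts held more inducible transcript per constitutive transcript at these positions. For *Psmb8* to *Psmb5* the transcript that moved differed between the heterozygous hearts. In heterozygous replicate 1 *Psmb5* was low (25.6) and *Psmb8* (9.44) was level with wild-type. In heterozygous replicate 2 *Psmb8* was high (14.4) and *Psmb5* (38.1) was close to wild-type replicate 1 (38.9). The ratio of *Psmb9* to *Psmb6* was 0.0558, 0.0462, 0.0526 and 0.0709, an overlap, with a log2 difference of 0.27. Of the 5 ratios compared, 4 gave p = 0.333 in an exact two-sided permutation test, the smallest that 2 against 2 hearts allow (adjusted p = 0.417 over the 5), and *Psmb9* to *Psmb6* gave p = 0.667 in the same exact test. Leaving out 1 heart at a time kept the log2 difference between 0.64 and 0.73 for *Psmb8* to *Psmb5*, between 0.53 and 0.96 for *Psmb10* to *Psmb7*, and between 0.05 and 0.48 for *Psmb9* to *Psmb6*.

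The remaining ratios compare sums of subunits. The 20S sum held the alpha ring and the constitutive beta ring only. It left out the inducible and thymus-specific beta genes, which summed to 34.1, 30.6, 33.9 and 42.2 in scaled TPM. Summed 19S subunits against summed 20S subunits stood at 0.635 and 0.634 in wild-type and 0.817 and 0.725 in heterozygous hearts, 1.21-fold higher without overlap. Leaving out 1 heart at a time kept the log2 difference between 0.19 and 0.37. The sum of *Psme1* and *Psme2* against summed 20S stood at 0.131, 0.113, 0.152 and 0.152, 1.25-fold higher without overlap, with a log2 difference between 0.21 and 0.43 when 1 heart was left out. The 20S sum is the denominator of both ratios, so they are not independent of each other.

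**Figure D3:**
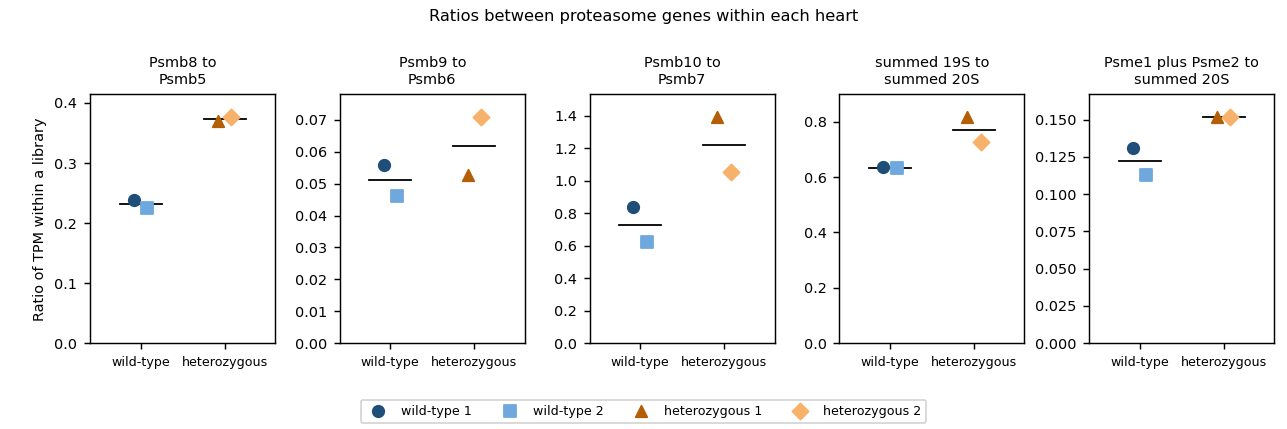
Ratios of proteasome transcripts within each library, 1 panel per ratio, 1 point per heart and a black line for the mean of a genotype. Both heterozygous hearts lie above both wild-type hearts in 4 panels, and the hearts overlap for *Psmb9* to *Psmb6*.

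Promoter sequence was searched for short motifs because the proteasome genes share regulators, with NFE2L1 as the factor that raises subunit genes through antioxidant response elements (ARE) and interferon factors for the inducible genes. RefSeq windows of 300 bases (250 before and 50 after each start, GRCm38.p6, both strands searched, with motifs allowed to overlap) were found for 40 of the 48 genes, in 43 windows. The ARE-like core TGAC-NNN-GC was in 6 of the 43 windows (14.0%, against 12.4% of all 32851 promoter windows), and CCAAT was in 14 (32.6%, against 37.4%), 5 of them among the 8 windows of the alpha ring. The interferon-stimulated element GAAA-NN-GAAA was in 5 (11.6%, against 3.44%), the interferon-gamma type TTC-NNN-GAA in 3 (6.98%, against 8.30%) and the CTCF-like core CCA-NN-AG-NN-GG in 3 (6.98%, against 7.03%). The GAAA-NN-GAAA matches were in windows of *Psmd4*, *Psmd9*, *Psmb3*, *Psmg4* and *Psme1*. It was in 0 of the 4 windows of the inducible and thymus-specific beta genes. A match describes letters in a window and does not show a bound site. Windows that held a match are printed for a constitutive and an inducible partner gene, for the ATPase genes with the highest fold changes and for alpha genes with the lowest, as 30 bases read 5′ to 3′ on the strand of the gene, with the motif in capitals.
*Psmb5* (ARE-like, chr14:54618023-54618052, minus strand, 47 bases before the start): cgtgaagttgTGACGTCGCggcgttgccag
*Psmc6* (ARE-like on the other strand, chr14:45329587-45329616, plus strand, 227 bases before the start): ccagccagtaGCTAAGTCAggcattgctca
*Psmb8* (interferon-gamma type, chr17:34198088-34198117, plus strand, 97 bases before the start): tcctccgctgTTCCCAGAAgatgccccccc
*Psma2* (CCAAT, chr13:14613176-14613205, plus strand, 54 bases before the start): ggtgactctcctCCAATcagagcaaagaag
*Psma6* (CCAAT, chr12:55384181-55384210, plus strand, 29 bases before the start): gaccactaggtgCCAATggaattcctgagg
*Psmc4* (CTCF-like on the other strand, chr7:28050312-28050341, minus strand, 240 bases before the start): tcggccgcgCCATCTACTGGagaaaccttc

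The genes of the catalytic swap lie on several chromosomes (mm10). *Psmb8* (17, 34197721 to 34201454, plus strand) and *Psmb9* (17, 34181987 to 34187764, minus strand) are close neighbours in the major histocompatibility region. *Psmb10* lies on chromosome 8 (105935735 to 105938444, minus strand) and *Psmb5* on chromosome 14 (54614119 to 54618022, minus strand). *Psmb6* lies on chromosome 11 (70525367 to 70527858, plus strand) and *Psmb7* on chromosome 2 (38588036 to 38644087, minus strand). The promoter excerpt of *Psmb8* falls inside the annotated span of the gene, before one of its later starts.

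The 19S ATPases form the ring that unfolds substrates and opens the gate of the core. Their 6 genes had a median log2 fold change of -0.14. In both heterozygous hearts 1 was lower (16.7%, against 23.3% of all genes) and 2 were higher (33.3%, against 23.7%). The median was 0.04 without heterozygous replicate 1 and -0.30 without heterozygous replicate 2. *Psmc6* had the highest log2 fold change of all proteasome genes and stood at 23.3 and 24.8 in wild-type and 39.3 and 26.5 in heterozygous hearts (log2 0.41, SE 0.22, limma adjusted p = 0.468). Here heterozygous replicate 1, the heart with the lowest values in most other proteasome genes, was the highest, and heterozygous replicate 2 was close to the wild-type hearts. *Psmc4* stood at 25.9, 27.5, 27.96 and 31.0 (log2 0.14, 95% interval -0.25 to 0.52). *Psmc2*, the least abundant ATPase gene, stood at 9.82, 10.9, 7.42 and 8.29 (log2 -0.36, SE 0.15, unadjusted p = 0.051, limma adjusted p = 0.412). The most abundant by mean, *Psmc3*, stood at 30.5, 32.0, 23.2 and 33.3 and overlapped, and its exons share 215 bases on the opposite strand with *Slc39a13*, listed at 8.83 to 11.9 TPM. *Psmc3*, *Psmc6* and *Psmc4* exchanged places between hearts, and their mean levels did not differ beyond their spread.

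The 19S non-ATPase subunits form the base scaffold and the lid, with receptors for ubiquitin and the protease that strips ubiquitin from substrates. Their 11 genes had a median log2 fold change of -0.09, with 8 below 0 (72.7%, against 50.7% of all genes). In both heterozygous hearts 3 were lower, a share near the 23.3% of all genes. The median was 0.037 without heterozygous replicate 1 and -0.24 without heterozygous replicate 2. *Psmd1*, a scaffold of the base, stood at 3.34, 4.03, 2.54 and 2.61 (log2 -0.38, SE 0.14, unadjusted p = 0.031, limma adjusted p = 0.374). It was the one 19S gene past an unadjusted p of 0.05, against 5.71% of all genes that were lower at that p. *Psmd13* (7.50, 9.59, 6.31 and 7.34, log2 -0.28) and *Psmd3* (13.4, 13.6, 10.6 and 12.4, log2 -0.22) were the others without overlap, and *Psmd13* shares 342 exon bases on the opposite strand with *Sirt3*, listed at 6.35 to 11.0 TPM. *Psmd8*, a lid subunit, had the highest fold change of the group, at 16.0, 17.2, 15.8 and 20.8 (log2 0.12, 95% interval -0.32 to 0.55). *Psmd4*, a ubiquitin receptor and the most abundant of the group, stood at 23.6, 26.9, 24.0 and 30.1 (log2 0.09), and *Psmd11*, a lid subunit and the least abundant, at 2.16, 2.95, 1.66 and 2.97 (log2 -0.12). *Psmd14*, the deubiquitinating enzyme of the lid, overlapped at 8.91, 8.75, 7.36 and 9.41 (log2 -0.07). Levels in this group ranged 10.7-fold, the widest of the roles with at least 3 tested genes. *Psmd2*, *Psmd6*, *Psmd7* and *Psmd12*, the remaining subunits, overlapped with log2 fold changes from -0.18 to 0.03.

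The 19S assembly chaperones hold ATPase subunits until the base is complete, and their transcripts were near the limit for testing. *Psmd9* stood at 1.79, 1.76, 3.08 and 1.80 (log2 0.28, 95% interval -0.19 to 0.76). Its higher mean rested on heterozygous replicate 1, since the other heterozygous heart was level with wild-type replicate 1. Exons of *Psmd9* share 1849 bases on the opposite strand with *Gm26745*, for which no TPM was listed. *Psmd10* stood at 1.42, 1.84, 1.32 and 1.17 (log2 -0.22), and *Psmd5* at 0.837, 1.87, 0.954 and 1.55 (log2 -0.04). With 3 genes, their median log2 fold change of -0.04 became -0.34 without wild-type replicate 1 and 0.28 without wild-type replicate 2.

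Activators cap the core in place of the 19S particle. *Psme1* and *Psme2* together form PA28 alpha-beta, which interferon induces and which favours peptides for antigen presentation. *Psme1* stood at 31.5, 31.1, 25.7 and 30.8 (log2 -0.15, 95% interval -0.56 to 0.26) and *Psme2* at 22.7, 20.7, 21.8 and 29.9 (log2 0.23, 95% interval -0.25 to 0.70). The partners thus had fold changes of opposite sign, each with a 95% interval that spans 0. A copy of *Psme2*, *Psme2b*, was 99.4% identical over 794 bases and listed at 2.10, 1.66, 0.86 and 0.58 TPM, so reads may be split between them. *Psme4* (PA200), which has a role in histone degradation, stood at 20.7, 17.8, 16.8 and 11.6 (log2 -0.43, SE 0.21, unadjusted p = 0.080, limma adjusted p = 0.443), and here heterozygous replicate 2 was the lowest heart. *Psme3* (PA28 gamma of the nucleus) stood at 5.63, 4.21, 4.67 and 5.71 (log2 0.07). The inhibitor *Psmf1* stood at 1.29, 1.49, 1.15 and 1.31 (log2 -0.10).

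The 20S assembly chaperones guide alpha subunits into rings before the beta subunits join. *Psmg1* and *Psmg2* act as a pair and overlapped between genotypes, at 6.38, 7.51, 7.35 and 7.02 for *Psmg1* (log2 0.05) and 14.4, 13.2, 11.5 and 14.0 for *Psmg2* (log2 -0.11). *Psmg3* and *Psmg4*, which also act as a pair, were lower in both heterozygous hearts, 2 of the 4 genes (against 23.3% of all genes). *Psmg3* stood at 4.58, 3.60, 2.76 and 3.56 (log2 -0.29, limma adjusted p = 0.499) and *Psmg4* at 10.02, 11.01, 7.12 and 9.73 (log2 -0.30, limma adjusted p = 0.509). The margin was narrow in heterozygous replicate 2. That heart was level with wild-type replicate 2 for *Psmg3* and close to wild-type replicate 1 for *Psmg4*. Heterozygous replicate 1 was the lowest heart for both genes. The median of the 4 was -0.20, with -0.04 without heterozygous replicate 1 and -0.34 without heterozygous replicate 2.

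Genes outside the complex were taken from lists of the same pathway. Of 23 partner genes (assembly, docking, shuttling and transcription factors) 0 passed the adjusted threshold, and the median log2 fold change was 0.02. At an unadjusted p under 0.05, 3 were lower (against 5.71% of all genes) and 0 were higher (against 6.49%). *Vcp*, the ATPase that extracts ubiquitin-tagged proteins for the proteasome, stood at 21.8 and 21.9 in wild-type and 12.3 and 13.8 in heterozygous hearts (log2 -0.71, SE 0.15, unadjusted p = 0.0029, limma adjusted p = 0.290). *Nfe2l1*, the transcription factor of subunit genes named above, stood at 13.6, 14.5, 9.63 and 10.01 (log2 -0.48, SE 0.15, unadjusted p = 0.015, limma adjusted p = 0.341). *Pomp*, which matures the 20S core, stood at 14.6, 13.4, 12.0 and 12.7 (log2 -0.17) and *Nfe2l2* at 15.6, 15.1, 19.1 and 14.0 (log2 0.09). In *Vcp* and *Nfe2l1* the heterozygous hearts lay close together, unlike in most subunit genes.

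Ubiquitin itself showed no shared direction. Of its 6 supply genes 5 were tested, and the median log2 fold change was 0.08. In either direction 0 passed an unadjusted p of 0.05 (against 5.71% lower and 6.49% higher of all genes). *Ubb*, a polyubiquitin gene, was lower in both heterozygous hearts (98.3, 115.4, 73.9 and 90.9), and *Uba1*, the main ubiquitin-activating enzyme, was higher (18.2, 18.7, 23.9 and 21.5).

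The genes of antigen presentation and interferon signalling, which share their inducers with the immunoproteasome, had 0 genes past the adjusted threshold and a median log2 fold change of 0.12. At an unadjusted p under 0.05, 0 of 10 were lower (against 5.71% of all genes) and 2 were higher (against 6.49%). *Nlrc5*, the activator of class I genes, stood at 3.52, 2.60, 3.96 and 6.70 (log2 0.61, unadjusted p = 0.036, limma adjusted p = 0.382). Heterozygous replicate 2 was the highest heart for *H2-K1* (195.3, 182.3, 199.1 and 365.5), *Tap1* (4.04, 3.22, 3.99 and 6.45) and *B2m* (135.8, 158.8, 116.3 and 200.3), as it was for *Psmb8*, *Psmb9*, *Psmb10* and *Psme2*. Over all tested genes it was the highest for 2587 of 10036. Wild-type replicate 2 was the highest heart for *Tapbp* (8.56, 9.44, 6.01 and 9.27) and *Erap1* (1.65, 1.91, 1.46 and 1.75). Class I genes are near-identical relatives, so reads may be split among them.

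**Figure D4:**
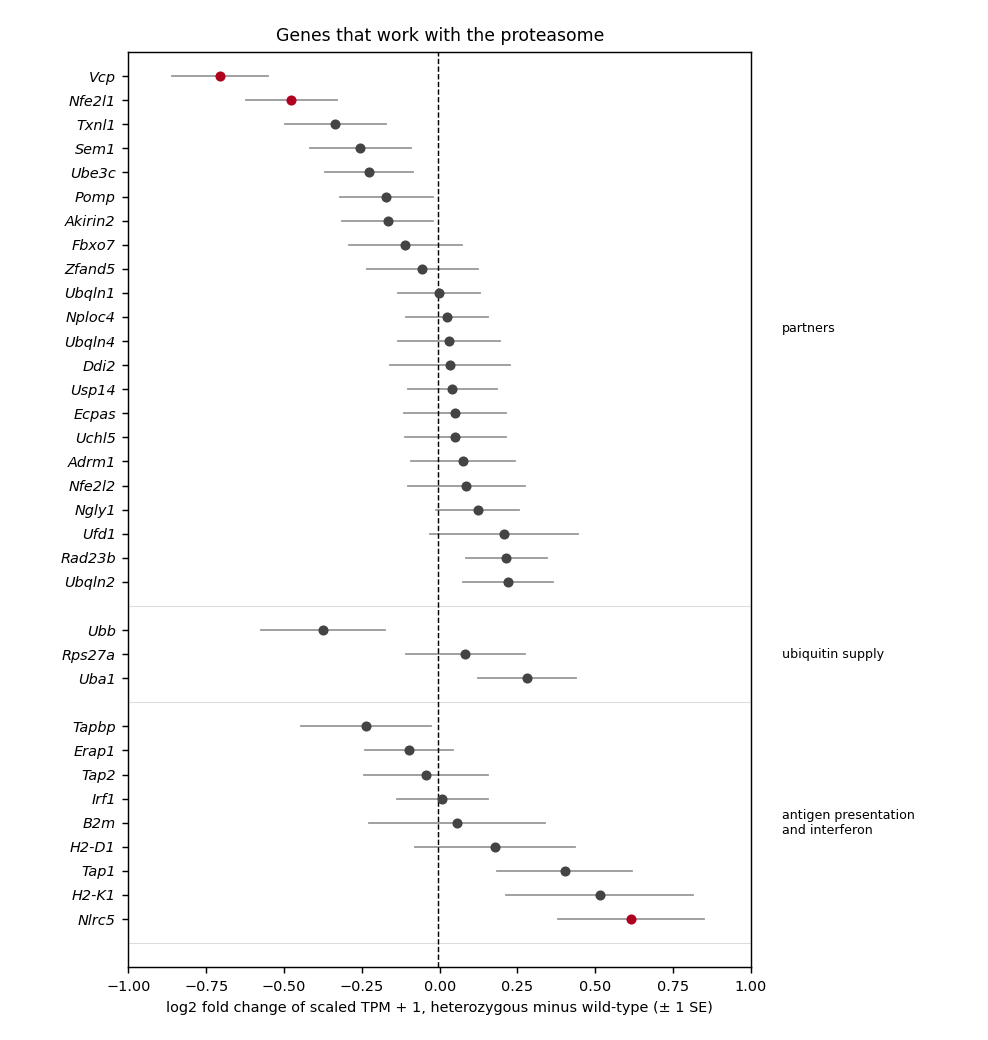
Log2 fold change, heterozygous minus wild-type, of tested genes of the partner, ubiquitin supply and antigen presentation lists, with 1 SE from limma. Red marks an unadjusted p under 0.05, which *Vcp* and *Nfe2l1* passed below 0 and *Nlrc5* above 0.

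Markers of cell types moved in part with these values. The background for the counts below is 5.71% of all tested genes lower and 6.49% higher at an unadjusted p under 0.05. Of 11 immune markers 7 were tested, 0 passed an unadjusted p of 0.05, *Cd3e* was at 0 in at least 1 library, and the summed level was 39.5 and 41.4 in wild-type and 29.3 and 41.5 in heterozygous hearts. Haemoglobin genes of red cells summed to 927.5, 984.8, 963.7 and 2116, with 0 of 4 past an unadjusted p of 0.05, and heterozygous replicate 2, the high one, was also the highest heart for all 3 inducible subunits. Cardiomyocyte markers summed to 22736, 21342, 18709 and 22195, with 0 of 7 past an unadjusted p of 0.05, and heterozygous replicate 1 was lowest, as it was for the beta ring. *Myh6* (log2 0.08) made up the largest part of that sum and overlapped between genotypes. Of the 7 markers 5 had a log2 fold change below 0, against 50.7% of all genes. Both heterozygous hearts were lower for 3 of the 7, against 23.3% of all genes. These were *Myl2* (log2 -0.39), *Pln* (log2 -0.48) and *Actc1* (log2 -0.46), beside a beta ring median of -0.42. *Tnnt2* (log2 -0.18), *Ryr2* (log2 -0.04) and *Tnni3* (log2 0.04) overlapped. Endothelial markers were lower in sum in both heterozygous hearts (444.8, 482.4, 351.1 and 394.8, with 1 of 6 lower at an unadjusted p under 0.05). Most of that sum was *Fabp4* (376.8, 411.9, 288.9 and 328.4), while *Tie1* was higher in both heterozygous hearts (log2 0.14) and *Cdh5* (log2 -0.02) and *Emcn* (log2 -0.14) overlapped. Fibroblast markers summed to 56.4, 80.3, 53.5 and 57.2 (1 of 6 lower at an unadjusted p under 0.05) and smooth muscle and pericyte markers to 73.1, 65.9, 49.8 and 66.1 (0 of 5). The part of any of these cell types in the proteasome values was not tested.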

How the data were processed

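Relative transcript abundance was measured in 4 libraries of whole hearts (8 weeks, 2 per genotype), grouped by the genotype given in the labels. The authors captured polyadenylated RNA, used Trim Galore (0.6.10) for trimming, STAR (2.7.4a) for alignment to mm10 and RSEM (1.2.28) for quantification, and deposited TPM per gene with 2 decimals. The RNA-seq library text of the methods was written for embryonic hearts, and the annotation release, use of strand and any batch were not given in the sources used here. The authors ran DESeq2 on counts, which were not used here, and TPM keep no depth, so no interval for counting error was made. An exact 0 may be a failed estimate and is written as listed at 0. Each library was taken to come from 1 mouse, though the labels do not say so. Litter and extraction day were not given in the sources used here, and p-values measure the spread between these libraries.

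Median-of-ratios factors were computed over the tested genes, those with a mean TPM of at least 1, 10036 in all, and TPM were divided by them. A pseudocount of 1 was added before log2, so fold changes of low genes are understated. Genotypes were compared with limma (3.58.1, under R 4.3.3) using lmFit followed by trended eBayes, with two-sided p adjusted by Benjamini-Hochberg across the tested genes. A call needed an adjusted p under 0.05 together with a change of over 1.5-fold, and the prior had 4.64 degrees of freedom. Ratios within a library were compared with an exact two-sided permutation test. Genes were matched to GENCODE M21 of mm10 (55141 identifiers), near-identical copies were found with BLAST+ (2.17.0) at 95% identity over 80% of the copy, and promoter windows came from RefSeq. Tables were made with Python (3.11.15) and pandas (2.3.3) and figures with matplotlib (3.10.9). The fit was tested on simulated data with planted changes larger than that of any proteasome gene. That test does not show how the fit performs on changes of the size reported here.

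The proteasome genes and all lists were chosen with earlier results of these data known. Values per heart are printed for the catalytic subunits and their inducible counterparts, the lowest and highest fold change and level of each role, every proteasome gene past an unadjusted p of 0.05, and the activators, inhibitor and 20S chaperones. Genes of the partner, ubiquitin and antigen presentation lists are named where they passed an unadjusted p of 0.05 or, after their values were seen, for their role. A few genes of these lists count in the list totals but are not reported here by name. Alternatives were a replicate block, leaving out each library, unscaled TPM, quantile normalization, leaving out mt- genes, other filters (none, or a mean TPM of 5), pseudocounts of 0.1 and 5, eBayes without trend or robust, and ratios of TPM + 1. Chosen after seeing the data were the removal of mt- genes with their 10 nuclear copies, a loess correction for GC and length (also with the block), and summing of near-identical copies.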

Additional observations from a re-analysis of the deposited data

How the results depend on the processing

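No proteasome gene was called by limma under any setting run. The number lower at an unadjusted p under 0.05 was 7, and it was 4 without a filter on low values, 23 with TPM as deposited, 26 with mt- genes removed and 4 with mt- genes and their nuclear copies removed. The share of all genes lower at that p was 5.71%, and under these settings it was 3.87%, 33.3%, 28.5% and 4.03%, in the same order. The median of all genes moved to -0.35 with TPM as deposited, to -0.31 with mt- genes removed and to 0.05 with their copies removed as well. Leaving out 1 library gave 0 to 15 lower and 0 to 2 higher. These counts changed with the number of genes tested, the scaling and the libraries kept. The loess correction for GC and transcript length, for which all 46 tested proteasome genes had values, left the beta ring median at -0.40. The constitutive beta ring was below the median of all genes in all 7 genes under each scaling, filter and pseudocount run.

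With 1 library left out the medians ranged from -0.49 to -0.066 for the alpha ring, -0.30 to 0.041 for the 19S ATPases, -0.34 to 0.28 for the 19S assembly chaperones, -0.34 to -0.042 for the 20S assembly chaperones, -0.65 to -0.20 for the constitutive beta ring, 0.0037 to 0.37 for the inducible subunits, -0.24 to 0.037 for the 19S non-ATPase subunits, -0.13 to 0.085 for the activators and -0.26 to -0.014 for all proteasome genes. Where 1 library was left out, the lone heart of a genotype was assumed to vary like the others. At a mean TPM of at least 5 no 19S assembly chaperone and no *Psmf1* was left, so these had no value.

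Same-numbered libraries are different mice, and their deviations correlated at 0.101 over all tested genes. With the replicate block 9 proteasome genes were lower at an unadjusted p under 0.05, the smallest adjusted p was 0.207, and 10 of all genes were called against 2 without it. The ratios have no block.

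Signs near 0 turned. Each value in this paragraph for a changed setting had the shift in the median of all genes subtracted. So taken, the log2 fold change of *Psma3* (-0.0011 in the main fit) was 0.0015 with a pseudocount of 0.1 and 0.00064 at a mean TPM of at least 5. It was 0.0049 with mt- genes and their copies removed, 0.024 with quantile normalization and 0.031 with the loess correction, with and without the block. With the same subtraction, TPM as deposited gave *Psma4* -0.035, *Psmd5* 0.052, *Psmd6* -0.051 and *Psmg1* -0.0023. With 1 library left out the log2 fold change ranged from -0.36 to 0.10 for *Psma1*, -0.066 to 0.056 for *Psma3*, -0.049 to 0.16 for *Psma4*, -0.26 to 0.37 for *Psmb9*, -0.42 to 0.085 for *Psmc3*, -0.27 to 0.031 for *Psmc5*, -0.42 to 0.17 for *Psmd11*, -0.24 to 0.083 for *Psmd14*, -0.15 to 0.037 for *Psmd2*, -0.074 to 0.25 for *Psmd4*, -0.36 to 0.28 for *Psmd5*, -0.041 to 0.11 for *Psmd6*, -0.20 to 0.0096 for *Psmd7*, -0.078 to 0.30 for *Psmd8*, -0.0013 to 0.45 for *Psme2*, -0.10 to 0.24 for *Psme3*, -0.058 to 0.15 for *Psmg1* and -0.24 to 0.018 for *Psmg2*. The cause of these turns was not tested.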
